A study of Mus musculus with 103 samples.

Results

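Genes of mRNA decay, 6 in all, were followed in mouse muscle stem cells of different ages: 3 of the Zfp36 family (Zfp36, Zfp36l1 and Zfp36l2) and 3 of the Btg family (Btg1, Btg2 and Btg3). They were taken by symbol, and all 6 were listed, among 43283 gene IDs in the bulk table and 43282 in the table of single-cell wells. Values are TPM, abundances corrected for transcript length and expressed as a share of all transcripts of a library, so levels of different genes can be compared within a library.

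All samples came from untreated C57BL/6 mice, with no transgene or deletion named. Bulk libraries were made from 3 young mice, 2 middle-aged mice of 12 and 13 months and 3 old mice of 24 months. The age field of the young bulk libraries gives 3 months and their description 2 months. The wells held single cells of 1 mouse of 3 months (64 wells) and 1 mouse of 24 months (31 wells). The labels name muscle stem cells as the source, the design text speaks of myoblasts, and a culture medium is described, with no word on whether the RNA came from freshly isolated or cultured cells. In the index names, the part before the last differed between all young and all old wells, while the last part was shared. Index set, mouse and age therefore cannot be told apart. The chemistry used for the wells is not given in the sources used here.

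Proteins of the ZFP36 family carry a pair of zinc fingers with which they bind AU-rich elements in the 3′ untranslated region of short-lived mRNAs, and they recruit the CCR4-NOT complex, which removes the poly(A) tail. Proteins of the BTG family lack such RNA-binding fingers, bind the CNOT7 and CNOT8 deadenylases of the same complex, and are known for restraining proliferation. Zfp36 and Btg2 are immediate early genes, switched on within minutes of a stimulus or of tissue dissociation, and Btg2 is also a target of p53. In muscle stem cells ZFP36, also called tristetraprolin, is known to act on the mRNA of the myogenic factor Myod1, and p38 and MK2 kinases inactivate it by creating sites for 14-3-3 proteins.

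The 3 Zfp36 genes encode the same kind of RNA-binding finger, shown here because it is what makes them 1 family. In the GENCODE vM21 coding sequences (mm10), each had 2 matches to the pattern of the CCCH finger, separated by 18 residues. The coding DNA of the first finger follows, 60 bases each, with the codons of the 3 cysteines and the histidine that hold the zinc in capitals.
Zfp36: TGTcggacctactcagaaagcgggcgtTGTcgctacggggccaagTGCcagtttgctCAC
Zfp36l1: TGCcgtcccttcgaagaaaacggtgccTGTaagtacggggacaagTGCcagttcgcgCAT
Zfp36l2: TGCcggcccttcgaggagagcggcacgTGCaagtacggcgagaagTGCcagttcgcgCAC
Zfp36l1 and Zfp36l2 were the closest pair, with 49 of 60 bases and 17 of 20 encoded residues identical. Zfp36 shared 42 bases and 13 residues with Zfp36l1, and 40 bases and 14 residues with Zfp36l2.

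Btg3 is shown because its coding sequence has an identical copy elsewhere in the genome. Whether the copy bears on the listed values of Btg3 was not tested. The processed pseudogene Gm7334 (mm10 chromosome 17, 50698688 to 50699443, plus strand) is 756 bases long and identical at every base to the coding sequence of Btg3 without its stop codon. The first 75 bases, the length of 1 read, are given with the start codon in capitals.
Btg3 and Gm7334: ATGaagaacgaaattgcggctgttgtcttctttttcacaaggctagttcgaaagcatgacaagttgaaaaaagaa
Of the 75-base windows of the 1414-base Btg3 transcript, 682 of 1340 (50.9%) also lie in Gm7334. Reads from these windows cannot be assigned to 1 of the 2 genes by sequence, while those from the other windows of this transcript can. The longest Btg3 transcript (3013 bases) shares 26.2% of its windows with other genes. Of these, 405 windows lie on the opposite strand of Cxadr, a gene that overlaps Btg3.

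The other loci differed in how far their sequence is shared. Btg2 (chromosome 1, 134075170 to 134079120, minus strand, 2 exons) had 0 of 2669 windows in common with any other annotated transcript. Zfp36 (chromosome 7, 28376784 to 28380253, minus strand), Zfp36l2 (chromosome 17, 84183931 to 84187947, minus strand) and Btg1 (chromosome 10, 96617006 to 96622809, plus strand) shared 1.07%, 0.897% and 1.58% of the windows of their longest transcript. Zfp36l1 (chromosome 12, 80107754 to 80113013, minus strand) shared 53.6%, and 1526 of its 2916 windows lie on the opposite strand of the long noncoding RNA Gm26669 (chromosome 12, 80108034 to 80113000, plus strand). Whether the authors' counting used strand is not given, so reads of Zfp36l1 and Gm26669 may have been divided between them. Btg3 itself lies on chromosome 16, 78332637 to 78377192, minus strand.

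The DNA before the start site is shown for Btg2, whose level followed that of early response genes across wells, and for Zfp36l1, whose window holds an AP-1 match. The sequences are RefSeq entries of the GRCm38.p6 build, 250 bases upstream of the start on the strand of the gene. Capitals mark the CRE motif TGACGTCA (Btg2) and the AP-1 motif TGANTCA (Zfp36l1), each searched on both strands.
Btg2, chr1:134079156-134079405, minus strand: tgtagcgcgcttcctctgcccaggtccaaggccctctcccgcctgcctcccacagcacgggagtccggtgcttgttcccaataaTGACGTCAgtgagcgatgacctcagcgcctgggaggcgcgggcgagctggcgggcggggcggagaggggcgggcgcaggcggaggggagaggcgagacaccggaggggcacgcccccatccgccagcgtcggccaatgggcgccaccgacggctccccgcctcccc
Zfp36l1, chr12:80113014-80113263, minus strand: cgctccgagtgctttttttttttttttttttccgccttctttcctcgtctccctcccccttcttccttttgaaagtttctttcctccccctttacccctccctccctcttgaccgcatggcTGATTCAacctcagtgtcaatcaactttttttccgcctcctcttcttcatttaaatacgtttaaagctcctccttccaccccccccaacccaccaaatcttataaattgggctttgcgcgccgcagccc
The CRE letters were present in 1.55% of all 32851 such windows of the table and the AP-1 letters in 6.75%. The CRE match of Btg2 lay at bases -166 to -159 from the start, and the AP-1 match of Zfp36l1 at -129 to -123. Whether either match bears on the level of its gene was not tested. The RefSeq window of Zfp36 lies inside the annotated GENCODE gene and overlaps its exons, so it is not upstream of every Zfp36 transcript and is not printed. It held a match to the serum response element, found in 1.47% of windows, and 1 to the STAT motif, found in 7.02%. Btg1 and Zfp36l1 had the TATA letters TATAAA, present in 12.4% of windows, at -26 to -21 and -29 to -24. No window of Zfp36, Zfp36l1, Btg1, Btg2 or Btg3 matched the p53 half-site, which 7.13% of all windows did, and 1 of the Btg3 windows matched the NF-kB motif, which 5.93% did. Zfp36l2 had no entry in the table.

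The transcripts of the members were also searched for an AU-rich heptamer, since AU-rich elements are what ZFP36 proteins bind. The heptamer TATTTAT occurred once in the first 500 bases after the stop codon of Btg2 and 2 times in the 439 bases after that of Btg3. It occurred in none of Zfp36, Zfp36l1, Zfp36l2 and Btg1 over the same 500 bases, against 12.2% of 12927 coding genes with at least 1 match and 1.87% with 2 or more. The shorter core ATTTA occurred 3 times in Btg1, 4 in Btg3, 1 each in Zfp36l1 and Btg2, and 0 in Zfp36 and Zfp36l2. Of the coding genes, 8.97% had 3 or more. Later bases were not searched, and Btg1 has 4166 bases after its stop codon. The site of Btg2 begins at base 103 after the stop codon, with the heptamer in capitals.
Btg2 site: atgaagagcTATTTATacatgtttt

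In bulk, the 2 best expressed members were among the most abundant mRNAs of the cells. Zfp36 ranked between 22 and 32 of all gene IDs in every library, and Zfp36l1 between 24 and 62. Btg2 ranked 153 to 242, Zfp36l2 243 to 681 and Btg1 346 to 997. Over the 8 libraries the mean was 3038 TPM for Zfp36, 2500 for Zfp36l1, 342 for Btg2, 179 for Zfp36l2 and 129 for Btg1. Zfp36 and Zfp36l1 overlapped in level across libraries and changed places at the top: Zfp36l1 was the higher in young 3 and middle-aged 1, and Zfp36 in the other libraries. Btg2 was above Zfp36l2 in all 8 libraries, and Zfp36l2 and Btg1 overlapped.

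The cells carried the markers of their label, and their summed level and that of 3 other marker lists did not overlap between young and old. The 12 muscle stem cell markers, which include Pax7, Myf5 and Calcr, summed to between 2311 and 2694 TPM in the young libraries, 1771 and 2357 in the middle-aged and 1482 and 2259 in old libraries. The 11 Schwann cell markers summed to 86.8 to 167.6 TPM in young, 196.5 to 406.7 in middle-aged and 462.3 to 1530 in old libraries, none of them at 0 throughout and all 11 higher in old. The 5 tenocyte markers summed to 9.8 to 29.1 TPM in young, 61.3 to 91.4 in middle-aged and 68.7 to 81.4 in old libraries. Fibroblast markers summed to 814.8 to 988.6 in young, 802.7 to 943.6 in middle-aged and 859.1 to 1309 in old libraries. For smooth muscle and pericyte markers the sums were 389.6 to 554.8, 448.4 to 622.6 and 371.9 to 740.5 in the same order. The 6 endothelial markers summed to 22.2 to 36 in young, 41.9 to 87.4 in middle-aged and 41.1 to 66.3 in old. Macrophage and myeloid markers summed to 26.8 to 47 in young, 78 to 107.8 in middle-aged and 28.4 to 59.6 in old. Lymphocyte markers summed to 1.8 to 27 in young, 33.7 to 50.5 in middle-aged and 3 to 12.1 in old. Both of these lists were highest in the middle-aged libraries. Red blood cell markers summed to 43.8 to 85.4 in young, 0 to 65.5 in middle-aged and 19.5 to 53.6 in old. Muscle fibre markers summed to at most 50.4 in any library. Mitochondrial transcripts held 32.67% to 46.5% of a library. The part of these differences in the values below was not tested, and in bulk RNA fewer cells of a type and less RNA per cell cannot be told apart.

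**Figure D1:**
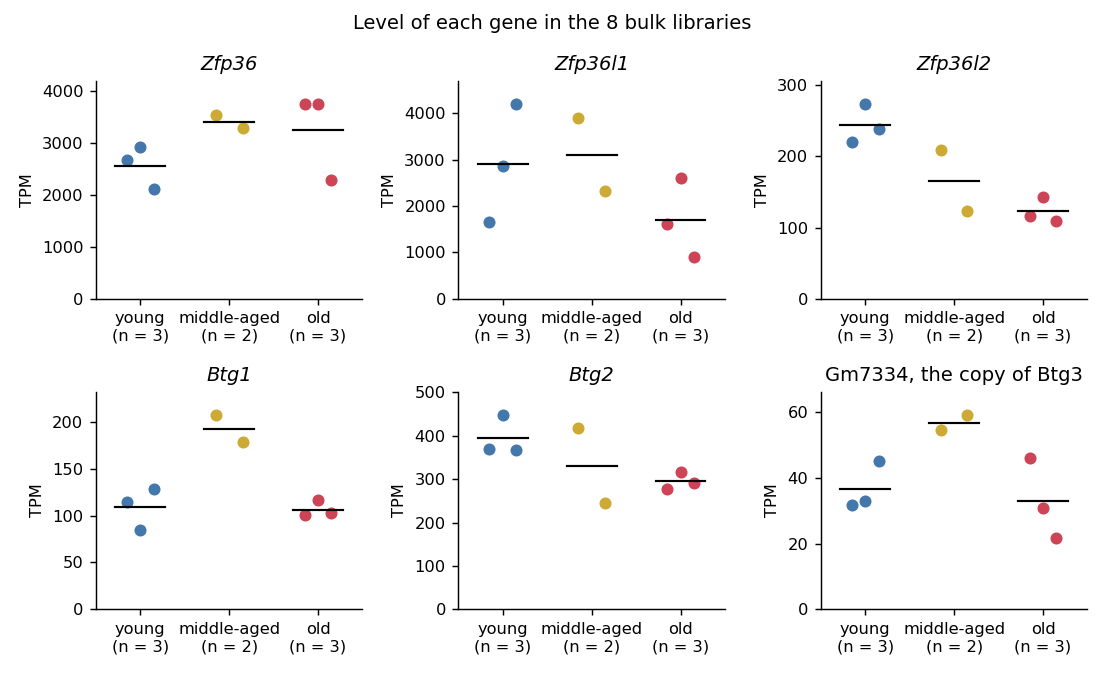
Points are the TPM of single bulk libraries (vertical axis, from 0) for 3 young, 2 middle-aged and 3 old mice, and black lines are group means; the last panel is Gm7334, since Btg3 itself is listed at 0. The 3 old libraries of Zfp36l2 and of Btg2 lie below all young ones, and both middle-aged libraries of Btg1 lie above all others.

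With age, none of the members passed the test in any comparison. Zfp36l2, the lowest of its family, was the member with the largest difference between old and young, 1.99 times lower in old. Btg2 was lower in old with no overlap between libraries, Zfp36 and Zfp36l1 differed in opposite directions with overlap, and Btg1 overlapped between young and old and was higher in both middle-aged libraries. Of the 22492 genes tested (mean TPM of 1 or more), limma with Benjamini-Hochberg adjustment over all of them called 0% for old minus young, 0.00445% (1 gene) for middle-aged minus young and 0% for old minus middle-aged, and 0 of the 5 tested members in each. At an unadjusted p under 0.05 the shares were 5.89%, 7.78% and 6.19% of all tested genes, and 1 member passed in each comparison.

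Zfp36l2, which in mice is needed for blood stem cells and early embryos, stood at 220.5, 273.17 and 239.15 TPM in the young libraries, at 208.94 and 122.93 in the middle-aged, and 115.7, 142.42 and 109.85 in the old. Every old library was below every young one, and of the middle-aged pair 1 lay just below the young range and 1 within the old range. Old minus young was -0.99 on the log2(TPM + 1) scale (SE 0.31, 95% interval -1.67 to -0.31), with an unadjusted p of 0.00854 and an adjusted p of 0.703 by limma, rank 273 of all genes by p. The exact two-sided permutation test over libraries gave p = 0.1, the smallest that 3 against 3 allows. Without any 1 library the difference lay between -1.1 and -0.91, and its adjusted p by limma between 0.168 and 0.872. Middle-aged minus young was -0.60 (SE 0.34), also without overlap, and old minus middle-aged was -0.39 (SE 0.34), with overlap.

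Zfp36, the gene of tristetraprolin, stood at 2672, 2922 and 2108 TPM in the 3 young, 3534 and 3283 in the 2 middle-aged, and 3745, 3748 and 2292 in old libraries. The first and second old libraries were above all young ones, while the third lay within the young range. Old minus young was 0.32 (SE 0.27, 95% interval -0.27 to 0.91, limma adjusted p = 0.839, exact permutation p = 0.3). Middle-aged minus young was 0.42 (SE 0.30, limma adjusted p = 0.655), with no overlap between the groups. With 1 library left out, old minus young lay between 0.19 (without young library 3) and 0.56 (without old library 3), and was 0.20 without old library 1 or 2.

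Zfp36l1, a family member known from blood vessel formation and B cell development, had the widest spread of all members, with a coefficient of variation of 45.45% over the 8 libraries. The young libraries held 1661, 2862 and 4189 TPM, the middle-aged 3886 and 2316, and the old 1606, 2593 and 890.8. The groups overlapped, although the lowest value was an old library and the highest a young one. Old minus young was -0.81 (SE 0.44, 95% interval -1.78 to 0.16), with a limma adjusted p of 0.839 and an exact permutation p of 0.2. With 1 library left out it lay between -1.18 (without old library 2) and -0.41 (without old library 3). Gm26669, on the opposite strand, was listed at 0 in all young and middle-aged libraries and at 63.04, 16.61 and 18.82 TPM in the old (limma adjusted p = 0.364). Summed with Zfp36l1 it left the difference at -0.78 (SE 0.44).

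Within the family, the share held by Zfp36 was 58.7%, 48.2% and 32.3% of the summed TPM in the young libraries, 46.3% and 57.4% in the middle-aged and 68.5%, 57.8% and 69.6% in old libraries. The share of Zfp36l1 was 36.5%, 47.2% and 64.1% in the young libraries, 50.9% and 40.5% in the middle-aged and 29.4%, 40% and 27.1% in the old. Young and old overlapped for both shares. Zfp36l2 held 3.7% to 4.8% in young and 2.1% to 3.3% in old libraries, without overlap.

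Btg1, known as a gene of quiescent and differentiated cells, stood at 114.41, 84.76 and 128.56 TPM in the young libraries, at 207.13 and 178.44 in the middle-aged, and at 100.36, 116.14 and 102.53 in old libraries. Both middle-aged libraries were above all 6 others, and young and old overlapped. Middle-aged minus young was 0.83 (SE 0.34, 95% interval 0.09 to 1.58), with an unadjusted p of 0.0321 and a limma adjusted p of 0.58. Old minus middle-aged was -0.85 (SE 0.34, 95% interval -1.6 to -0.11), with an unadjusted p of 0.0289 and a limma adjusted p of 0.724; both comparisons use the same 2 middle-aged libraries. Old minus young was -0.02 (SE 0.30, 95% interval -0.69 to 0.65).

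Btg2, the p53-responsive and growth-restraining member, stood at 369.92, 447.65 and 366.3 TPM in the young libraries, at 417.79 and 244.67 in the middle-aged, and at 278.08, 317.15 and 291.67 in old libraries. All old libraries were below all young ones, and the middle-aged pair spanned the old range and most of the young. Old minus young was -0.41 (SE 0.28, 95% interval -1.04 to 0.21), with a limma adjusted p of 0.839 and an exact permutation p of 0.1, the smallest possible. Middle-aged minus young was -0.30 (SE 0.32) and old minus middle-aged was -0.11 (SE 0.32), and each changed sign without 1 of the middle-aged libraries.

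Btg3 was listed at 0 in all 8 bulk libraries and was therefore not tested. Its copy Gm7334 had 31.68, 32.87 and 45.04 TPM in the young libraries, 54.49 and 59.17 in the middle-aged, and 45.98, 30.91 and 21.7 in old libraries. Like Btg1, it was highest in both middle-aged libraries and overlapped between young and old. Old minus young was -0.19 (SE 0.41) and middle-aged minus young 0.64 (SE 0.46, limma adjusted p = 0.663). The values may include reads of Btg3, and the files do not let the 2 genes be separated.

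Groups without overlap are common in data of this size. Zfp36l2 and Btg2 did not overlap between old and young, against 10% of all tested genes in either direction and 18.8% of tested genes whose mean reached 100 TPM, the range in which the 5 tested members lie. Between middle-aged and young, Zfp36, Zfp36l2 and Btg1 did not overlap, against 18% of all tested genes and 25.3% of those above 100 TPM. Between old and middle-aged only Btg1, of the 5, did not overlap, against 19.9% and 24.4%. These comparisons share libraries, so their counts are not independent.

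**Figure D2:**
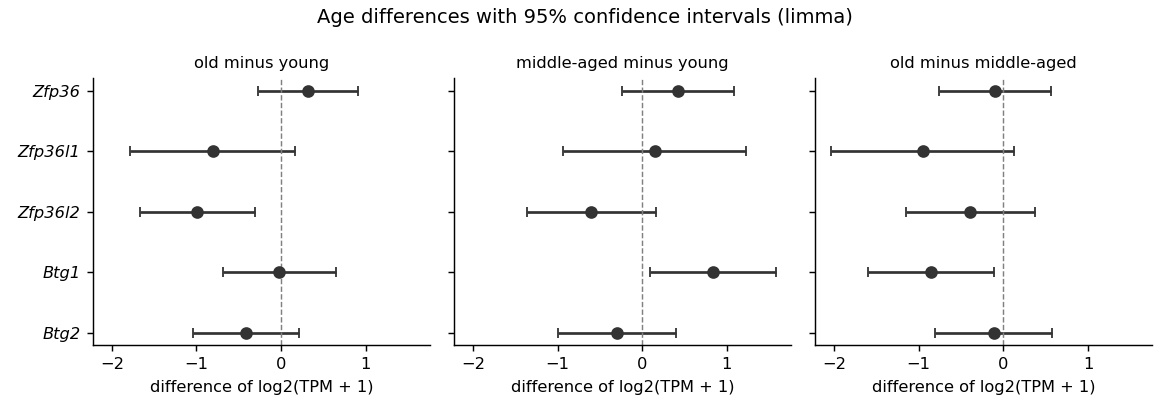
Points are differences of mean log2(TPM + 1) between 2 age groups (horizontal axis) for the 5 members above 0, and bars are 95% confidence intervals from limma. The bars of Zfp36l2 (old minus young) and of Btg1 (both comparisons with middle-aged) do not reach 0, and none of the members passed after adjustment over all genes.

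Across the 8 libraries Zfp36l2 and Btg2 had the most similar profiles among the members (Pearson r = 0.91 of log2(TPM + 1)), followed by Zfp36l1 and Zfp36l2 (0.66). Zfp36 was near or below 0 with Btg2 (-0.18) and Zfp36l2 (-0.29). Among 7166 genes above 0 in all libraries, the closest to Zfp36l2 were Nppc (0.987), Pwwp2a (0.981) and Cox4i1 (0.958), and to Btg2 Fubp3 (0.952), Mtch1 (0.95) and Wdr73 (0.95). The closest to Zfp36 were Etfb (0.956), Mbtd1 (0.938) and Pqlc1 (0.91), to Zfp36l1 Tra2a (0.985), mt-Nd2 (0.981) and Rps23 (0.976), and to Btg1 Sgk1 (0.956), Gm26853 (0.955) and Adsl (0.951). With 8 points and so many genes such values are descriptions, and age is shared by the points.

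The partners of these proteins differed in both directions between old and young, with list medians of -0.10 and -0.23. Of 10 tested CCR4-NOT genes, 3 were higher and 7 lower in old, with a median of -0.10, beside a median of 0.00 over all tested genes, of which 54.2% were higher. Cnot7, the deadenylase that BTG proteins bind, was at 28.17, 36.17 and 30.29 TPM in young and 7.95, 56.62 and 18.97 in old libraries, a difference of -0.57 (SE 0.61). Cnot6 and Cnot6l, the partner nucleases, differed by 0.56 (SE 0.58) and -0.37 (SE 0.44). Among 13 genes of poly(A) binding, PAN2-PAN3 trimming, decapping and 5′ to 3′ decay, 4 were higher and 9 lower, with a median of -0.23. The smallest p values there were those of Pabpc4 (-0.95, SE 0.54), the exonuclease Xrn1 (-0.54, SE 0.39) and Edc4 (1.06, SE 1.08). None of these genes had an unadjusted p under 0.05.

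The relatives Tob1 and Tob2, which also bind CCR4-NOT, were lower on average, by -0.25 (SE 0.37) and -0.48 (SE 0.43), at group means of 66.9 and 35.7 TPM in young and 54.2 and 24.9 in old libraries. Btg4, an oocyte gene, was above 0 in 3 of 8 libraries and differed by -0.07 (SE 1.13). Zfp36l3 was above 0 in 1 library. Of 5 other proteins that bind AU-rich elements, 3 were higher and 2 lower, with a median of 0.05, and Tial1 (0.84, SE 0.41), Tia1 (-0.17, SE 0.53) and Hnrnpd (0.09, SE 0.32) had the smallest p values.

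Among the 9 genes of the p38, MK2 and 14-3-3 branch that acts on ZFP36 protein, 6 were higher and 3 lower in old, with a median of 0.34. Mapkapk3, which encodes MK3, the close relative of MK2, was listed at 0 in all 3 young libraries, at 55.56 and 92.16 TPM in the middle-aged and at 14.05, 13.1 and 20.35 in the old. It was the 1 gene of all that limma called for middle-aged minus young, with a difference of 6.18 (SE 0.67) and an adjusted p of 0.0498, and for old minus young the difference was 4.05 (SE 0.60) with an adjusted p of 0.172. With a pseudocount of 5, without the filter on low values, under either other scaling, with the replicate block, with the 2 groups alone, or without any 1 young or old library, the comparison called 0 genes. In wells with at least 1000 genes Mapkapk3 reached 1 TPM in 1 of 54 young and 0 of 7 old wells, and the 0 of 7 allows a share of up to 42.9% of such old wells. Ywhah and Ywhag, 14-3-3 genes, differed by 0.55 (SE 0.40) and 0.56 (SE 0.48) between old and young, and Mapk14, the p38 kinase, and Mapkapk2 by -0.14 (SE 0.66) and 0.53 (SE 0.81).

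Transcripts reported as targets of the Zfp36 family were mostly higher in old: 14 of 18 tested, with a median of 0.55. Over all tested genes 54.2% were higher. Middle-aged minus young also had 14 of 18 higher, with a median of 0.57, beside 0.18 over all tested genes. Old minus middle-aged had 10 of 18 higher, with a median of 0.22, beside -0.09 over all tested genes. Fos, Ier3 and Myc of this list are also in the list of immediate early genes, and Plk2 is among the p53 targets. The lists are therefore not separate observations. The call threshold was passed by 0 of the 18 targets, and 3 had an unadjusted p under 0.05. The early response gene Ier3 was at 127.43, 50.67 and 50.1 TPM in young and 170.35, 166.26 and 131.3 in old libraries (1.16, SE 0.41, limma adjusted p = 0.749). Il6, a classical AU-rich cytokine mRNA, was at 6.45, 0 and 5.51 in young and 32.98, 22.98 and 6.55 in old (2.33, SE 0.86, limma adjusted p = 0.793), and the kinase gene Pim1 differed by 2.36 (SE 0.92, limma adjusted p = 0.808). In Il6 and Ier3 all old libraries were above all young ones. Myod1, the target known in muscle stem cells, had 33.35, 17.38 and 6.33 TPM in the young libraries, 4.26 and 37.82 in the middle-aged, and 9.24, 20.2 and 10.16 in old libraries, and the groups overlapped (-0.31, SE 0.83).

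Genes with the heptamer had medians close to that of the rest. Of 10414 tested coding genes with at least 500 bases after the stop codon, 55.4% were higher in old, with a median of 0.08. Of the 1080 genes with 1 TATTTAT in those bases 54.3% were higher, with a median of 0.05. Of the 179 genes with 2 or more 51.4% were higher, with a median of 0.00.

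The immediate early genes, to which Zfp36 and Btg2 belong by their regulation, were higher in old for 19 of 26, with a median of 0.41 and 6 with an unadjusted p under 0.05. Gadd45b was at 8.58, 8.89 and 9.75 TPM in young and 42.66, 47.78 and 23.51 in old libraries (1.89, SE 0.47, limma adjusted p = 0.544). Fosl1 differed by 2.84 (SE 0.85) and Nr4a2 by 1.95 (SE 0.59). For middle-aged minus young the same list had 19 of 26 higher, with a median of 0.70, beside a median of 0.18 over all tested genes. Btg2 differed by -0.41 between old and young while the list median was positive, and Zfp36 by 0.32.

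Of 12 tested p53 targets, 7 were higher and 5 lower, with a median of 0.34. Cdkn1a, the cell cycle inhibitor p21, had 48.4, 17.9 and 39.84 TPM in the young libraries, 41.22 and 268.84 in the middle-aged and 136.5, 137.24 and 104.09 in old libraries (old minus young 1.90, SE 0.63, limma adjusted p = 0.728). Gadd45a differed by 1.25 (SE 0.40) and Plk2 by 0.89 (SE 0.49). These 3 genes had the smallest p of the list and were higher on average in old, although Gadd45a and Plk2 overlapped between young and old. Btg2, itself a p53 target, was lower in all 3 old libraries than in the young ones, on the side of the 5 lower targets. Of 13 tested genes of the cell cycle list (cyclins, cyclin-dependent kinases and proliferation genes), 6 were higher and 7 lower, with a median of 0.00. Ccnd3 was at 102.02, 72.76 and 41.81 TPM in young and 34.33, 34.45 and 35.82 in old libraries (-0.94, SE 0.41, limma adjusted p = 0.833), and Ccna2 and Cdk4 differed by -1.44 (SE 0.73) and -1.35 (SE 0.72). Pax7, Myf5 and Calcr, markers of the stem cell state, differed by -0.42 (SE 0.31), -0.35 (SE 0.42) and -0.54 (SE 0.47).

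**Figure D3:**
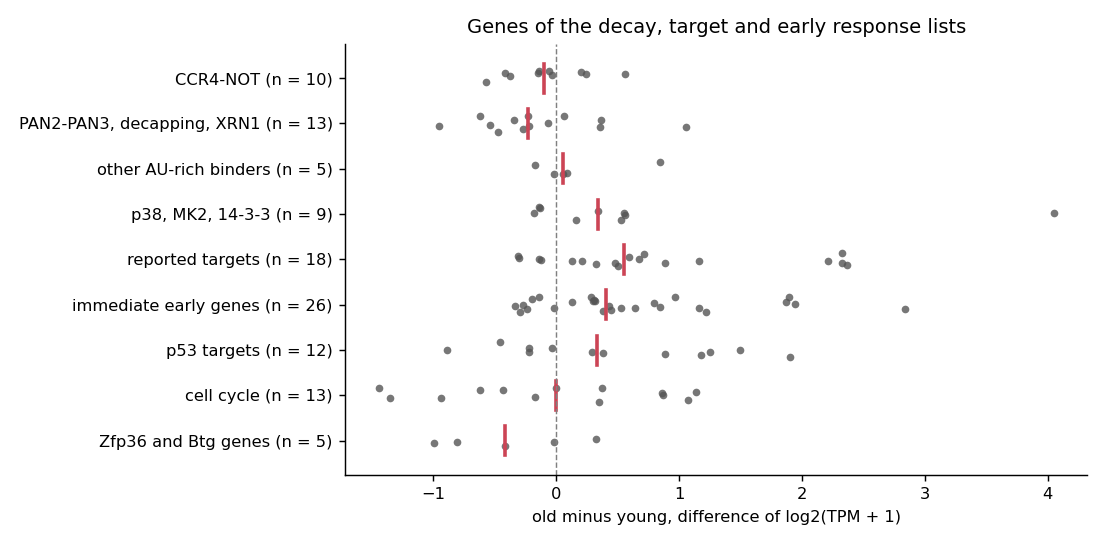
Each point is 1 tested gene, placed by its old minus young difference of log2(TPM + 1) on the horizontal axis, in the rows named at the left; red bars are list medians and the dashed line is the median of all tested genes. Most reported targets (14 of 18) and immediate early genes (19 of 26) lie to the right of 0, the point at 4.05 is Mapkapk3, and 4 of the 5 tested members lie to the left of 0. Fos, Ier3 and Myc stand in both the row of targets and the row of immediate early genes.

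The wells gave the same genes cell by cell, from 1 mouse per age, so that no test between ages was possible. Spike-in RNA took a median of 66.6% of the TPM in young and 95.6% in old wells, and the wells had a median of 1854 and 64 genes at 1 TPM or more. At least 1000 genes were found in 54 of 64 young and 7 of 31 old wells, and no 2 wells were identical. Schwann cell markers reached 1 TPM in 3 of 64 young and 0 of 31 old wells, against 56 and 14 wells with a muscle stem cell marker and 48 and 6 with a fibroblast marker. Old wells thus held fewer genes and a larger share of spike-in RNA, and whether this sets the shares of wells with a member was not tested. The values below are given for wells with at least 1000 genes, rescaled to a common total (as for TPM) without spike-ins where a level is given.

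Among the members, Btg1 was found in the most young wells. It reached 1 TPM in all 54 young wells (exact Clopper-Pearson 95% interval 93.4% to 100%), 1 of 127 such genes among the 13235 found, and its rescaled level had a median of 1182 with quartiles of 793.5 and 2175. In all 64 young wells the share was 87.5% (76.8% to 94.4%), and in all 31 old wells 25.8% (11.9% to 44.6%). Among the 7 old wells with at least 1000 genes it was found in 6, with a rescaled median of 1298. The intervals cover counting of wells only.

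Btg2 had the highest mean and median of the members in young wells. It was found in 46 of 54 young wells (85.2%, 72.9% to 93.4%), with a rescaled median of 1503, an upper quartile of 4034 and a highest value of 13733. It was at 0 in 8 young wells. In the old wells it was found in 5 of 7, with a median of 626.5 and a highest value of 2936. The old range lay within the young range.

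Zfp36 was found in 37 of 54 young wells (68.5%, 54.4% to 80.5%) and at a rescaled median of 349.8, with a highest value of 5158. The lower quartile was 0.33, and the gene was at 0 in 14 of the 54 wells. A low or missing value in a single well does not tell low expression from missed capture: the housekeeping gene Gapdh was above 0 in 50 of the same 54 wells. In the 7 old wells it was found in 4, at a median of 3.65 and a highest value of 646.5. All old values lay within the young range.

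Zfp36l1 was found in 47 of 54 young wells (87.0%, 75.1% to 94.6%) with a median of 179.7, and in 4 of 7 old wells with a median of 29.1. Zfp36l2 was found in 36 of 54 young wells (66.7%, 52.5% to 78.9%) with a median of 43.1, and in 6 of 7 old wells with a median of 46.3. Btg3, at 0 in bulk, was found in 7 of 54 young wells (13.0%, 5.37% to 24.9%), at up to 632.4 rescaled, and in 1 of 7 old wells. Gm7334 was found in 10 of 54 young and 2 of 7 old wells. Gm26669, at 0 in young bulk libraries, was found in 21 of 54 young wells.

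The order of levels differed between the 2 formats, which were normalised separately. In young bulk libraries the means ran from Zfp36l1 (2904 TPM) and Zfp36 (2568) over Btg2 (395) and Zfp36l2 (244) to Btg1 (109). In young wells the rescaled means ran from Btg2 (2839) and Btg1 (1480) over Zfp36 (615.1) and Zfp36l1 (231.6) to Zfp36l2 (173.2). The 2 formats used different mice, and the difference between them was not tested.

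**Figure D4:**
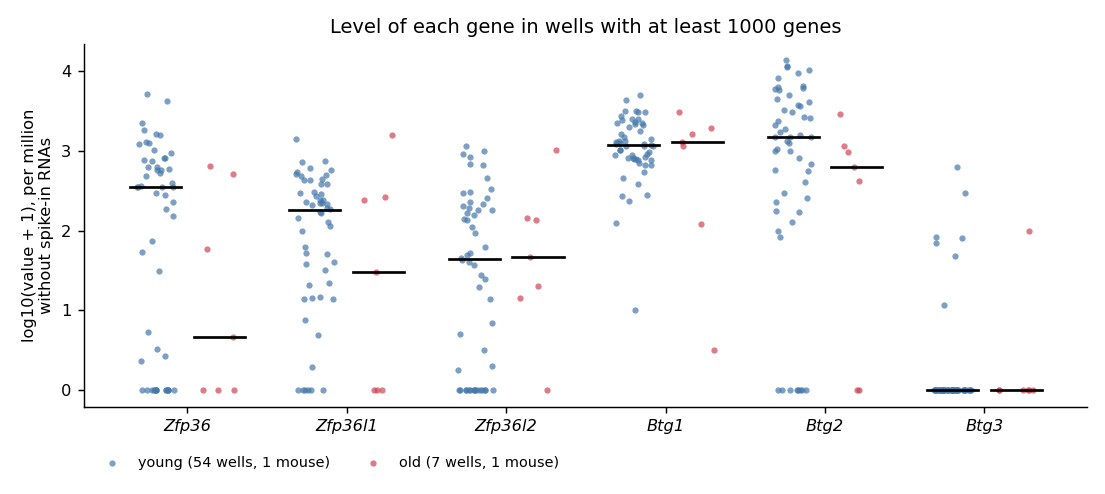
Each point is 1 well with at least 1000 genes, at log10 of its value plus 1 (vertical axis), after rescaling each well to a common total without spike-in RNAs; black bars are medians of 54 young and 7 old wells, each from 1 mouse. In young wells Btg1 runs from 9.23 to 5040 with no well at 0, while Zfp36, Zfp36l1, Zfp36l2 and Btg2 range from 0 to over 1000.

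Across the 54 young wells, Zfp36 and Btg2 had their highest rank correlations with other genes of the early and stress response. Zfp36 had its highest rank correlation with Fos (Spearman rho 0.67), ahead of the heat shock genes Hspa1a (0.66) and Hspa1b (0.57), and Btg2 with Atf3 (0.66), Jun (0.62) and Egr1 (0.62), among 2390 genes found in at least 25% of these wells. The median rho over those genes was 0.04 for Zfp36 and 0.01 for Btg2. Zfp36 and Btg2 had a rho of 0.50 with each other. The 3 genes closest to Zfp36l1 were Id3 (0.57), Abcc5 (0.51) and Bhlhe40 (0.46), and those closest to Btg1 were Sat1 (0.50), Gm15361 (0.48) and Nhp2l1 (0.48). Zfp36l2 reached 0.43 with Ndufa2, 0.38 with Sepp1 and 0.38 with Nfkbiz.

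Zfp36l1 had a rho of 0.29 with both Zfp36 and Zfp36l2, and Zfp36 with Zfp36l2 had -0.14. With the early response genes Fos, Jun, Atf3 and Egr1, Zfp36l1 had 0.34, 0.25, 0.12 and 0.11. Btg1 and Btg2 had 0.11, although they belong to 1 family and bind the same deadenylases. The pair Zfp36l2 and Btg2, the most similar across bulk libraries, had 0.02 across wells. With the number of genes per well Zfp36 had a rho of 0.31, Btg1 0.22, Btg2 0.10, Zfp36l1 0.09 and Zfp36l2 -0.11. Before rescaling the values were 0.38 for Zfp36 and 0.45 for Btg1. With the stem cell marker Pax7 the 6 members had between -0.14 (Btg3) and 0.18 (Zfp36). These values describe cells of 1 mouse.

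**Figure D5:**
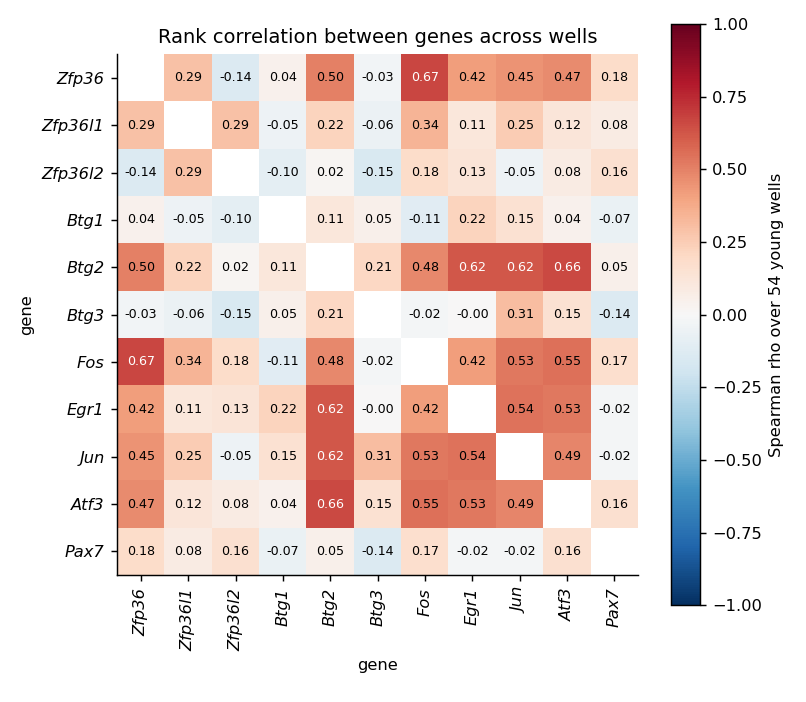
Cells of the grid give the Spearman rho between 2 genes over the 54 young wells with at least 1000 genes, after rescaling without spike-in RNAs; red is positive and blue negative on a scale from -1 to 1. Zfp36 and Btg2 form a block with Fos, Egr1, Jun and Atf3 (0.42 to 0.67), while Zfp36l2 and Btg1 lie between -0.15 and 0.29 with every gene shown.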

How the data were processed

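Both tables hold TPM deposited by the authors, per the labels. STAR and mm10 are named in the submitters' processing notes; the quantifier, its annotation and versions, and strand use were not given in the sources used here. TPM carry no read depth, so no counting error was computed for bulk values. Groups follow the labels, and bulk libraries come from separate mice per the labels' design text. Limma 3.58.1 in R 4.3.3 was fitted to log2(TPM + 1) of the 22492 genes whose mean TPM was 1 or more, all 8 libraries together, with an intensity trend, two-sided tests, Benjamini-Hochberg adjustment over all tested genes and a threshold of 0.05. It was tested on simulated data. Single members were also compared by exact permutation over libraries. Wells (Python 3.11.15, scipy 1.17.1) were described at 1 TPM or more, without tests.

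Of 45798 bulk entries, 92 spike-ins and 2423 entries without a gene ID were left out. Sequences came from GENCODE vM21 transcripts and RefSeq GRCm38.p6 promoters, which need not be the annotation the authors used. The members and lists were chosen with earlier results of these data known. Named genes were the members, up to 3 genes per list with the smallest p for old minus young, the 3 genes most similar to each member, and Pax7, Myf5, Calcr, Myod1 and Cdkn1a. Mapk14, Mapkapk2, Zfp36l3, the genes that share sequence with a member, and the genes set beside the members in the wells were added after their values were seen. Alternatives covered the pseudocount, filter, scaling, variance model, samples in the fit, replicate block and each library left out. Added after seeing the data were the sums with Gm7334 and Gm26669, the genes above 100 TPM, the wells rescaled without spike-ins, and the TATTTAT and ATTTA counts.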

Additional observations from a re-analysis of the deposited data

How the results depend on the processing

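No member was called in any alternative run, and Zfp36, Zfp36l1, Zfp36l2 and Btg2 kept their direction for old minus young in all of them. For old minus young, Btg1 was 0.00 without mitochondrial genes and between -0.19 and 0.11 with 1 library left out. Zfp36, old minus middle-aged, was 0.09 with the replicate block and between -0.22 and 0.14 with 1 library left out. With 1 library left out, Zfp36l1, middle-aged minus young, lay between -0.23 and 0.52, Btg2, old minus middle-aged, between -0.50 and 0.27, and Btg2, middle-aged minus young, between -0.68 and 0.09. The causes were not tested. Libraries with the same number correlated at -0.012 to 0.005 after removal of group means, so they showed no common deviation from their groups. Libraries with different numbers were not set beside them, so this does not settle whether the numbers pair the samples. The replicate block left Zfp36l2, old minus young, at -0.99 (limma adjusted p = 0.889) and called 0 members. For middle-aged minus young, the 1 gene called became 7 with a pseudocount of 0.1, 0 with a pseudocount of 5, 2 with a mean of at least 5 TPM, 12 without the intensity trend, 600 and 859 without middle-aged library 1 and 2, and 0 in the other alternatives. For old minus middle-aged, the 0 genes called became 6 with a pseudocount of 0.1 and 580 and 792 without middle-aged library 1 and 2. Leaving out a middle-aged library leaves 1 in its group, which is then assumed to vary like the others. With 1 library left out, the medians for old minus young kept their sign for the reported targets (0.31 to 0.83), immediate early genes (0.22 to 0.60), p53 targets (0.09 to 0.60) and the p38 branch (0.05 to 0.48), and crossed or reached 0 for CCR4-NOT (-0.30 to 0.23), the decay list (-0.43 to 0.00), other AU-rich binders (-0.04 to 0.18) and the cell cycle list (-0.26 to 0.26). Depth is unknown, so the groups of 2 or 3 libraries set the precision.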
